A study of Homo sapiens with 21 samples.

Results

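Silencing of ARID1A alone was compared with Control in SK-N-BE(2) cells, a line derived from a human neuroblastoma that carries amplified MYCN, by ATAC-Seq, an assay in which the Tn5 transposase cuts open chromatin so that reads over a site rise with its accessibility. The comparison used 9 of the 21 libraries of the series, chosen by their labels. These were 3 Control libraries, 3 libraries with the short hairpin RNA (shRNA) shARID1A.2 and 3 with shARID1A.4, and the question was which sites, site classes and genes change with both hairpins. Cells of every group were transduced with lentiviral particles and collected 72 h later, in what the submitters describe as biological triplicates, and Control cells received the study's non-silencing construct. The other 12 libraries, with ARID1B or both genes silenced, entered only to estimate the spread and where they are named. All groups come from 1 cell line, shRNAs lower a transcript without deleting the gene, and the knockdown itself is not measured by accessibility. The consensus set held 367900 sites, of which 357029 had enough reads to be tested. A site is called closed or opened where its accessibility was lower or higher than in Control at a false discovery rate (FDR) under 0.01 in the edgeR quasi-likelihood test, and closed or opened with both shRNAs where this held for each shRNA by itself in the same direction. Sites are named after the gene with the nearest transcription start site (TSS), which need not be the gene they regulate. Accessibility is given as CPM, the read count of a site divided by a scaled library total and set to the usual base of counts per 1000000, as mean ± SD over 3 libraries, and coordinates are on GRCh38.

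BAF complexes are chromatin remodellers that use ATP to slide and evict nucleosomes, and they are best known for keeping distal regulatory elements accessible. ARID1A and ARID1B are large DNA-binding subunits that occupy the same position in the complex, so that a given BAF complex contains either of them but not both. Neuroblastoma arises from the sympathoadrenal lineage of the neural crest, and its adrenergic cells rely on a circuit of transcription factors that includes HAND2, GATA3, ISL1 and MYCN.

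The 9 libraries held 16140029 to 25188802 reads in sites, with the fewest in shARID1A.4 replicate 3, and all replicate pairs differed by more than counting noise. Marker genes were examined for the adrenergic line. Sites within 1000 bases of the TSS were present for 5 of 7 adrenergic markers, with summed levels in Control from 0 (ISL1, among others, with no site within that distance) to 43.9 CPM (HAND2) and a median of 10.3 CPM, and up to 42.8 CPM in silenced cells. None of 4 Schwann cell and none of 3 leukocyte markers had such a site. Of 3 epithelial markers, EPCAM measured 6.62 CPM in Control and 9.21 CPM in silenced cells, CDH1 measured 2.75 and 3.87 CPM, and KRT8 had no such site. Sites in the 1 Mb around MYCN, 0.0636% of all sites, took 3.91% to 4.69% of the reads of a library. Reads come from a bulk of cells, so fewer cells with an open site and less opening per cell cannot be told apart.

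Sequences of sites named below for large changes are shown first, to let their base composition and short motifs be seen. They are examples, and the shares over all sites are given further on. Each line gives the central 200 bases of a site on the plus strand of GRCh38, and capitals mark matches on either strand to AGATAA (read by factors of the GATA family), to CATCTG (an E-box of HAND and TWIST family dimers) and GGGCGG (SP and KLF factors). A match is a description of the letters and not a bound site. The closed sites lie at chr6:19070501-19070700 (LOC101928519), chr1:47618541-47618740 (FOXD2), chr3:14849955-14850154 (RP11-95M5.1), chr11:133573200-133573399 (OPCML), chr3:31235292-31235491 (STT3B) and chr5:9903887-9904086 (LOC285692, a promoter with none of the 3 motifs). The opened promoters lie at chr19:3869041-3869240 (ZFR2), chr7:27130617-27130816 (HOXA4) and chr15:41621480-41621679 (MGA, none of the 3 motifs). Of sites that are not printed, the fall at ERLIN1 and the promoter rise at ZNF556 held none of the 3 motifs, and the promoter rise at SNAR-B1 held CATCTG.
LOC101928519: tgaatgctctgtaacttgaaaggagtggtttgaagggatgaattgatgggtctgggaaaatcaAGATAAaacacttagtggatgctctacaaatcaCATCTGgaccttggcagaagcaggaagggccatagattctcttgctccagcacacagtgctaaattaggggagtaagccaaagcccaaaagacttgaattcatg
FOXD2: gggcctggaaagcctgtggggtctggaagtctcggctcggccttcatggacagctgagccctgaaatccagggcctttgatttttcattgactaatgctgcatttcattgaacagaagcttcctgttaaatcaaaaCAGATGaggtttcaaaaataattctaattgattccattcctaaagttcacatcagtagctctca
RP11-95M5.1: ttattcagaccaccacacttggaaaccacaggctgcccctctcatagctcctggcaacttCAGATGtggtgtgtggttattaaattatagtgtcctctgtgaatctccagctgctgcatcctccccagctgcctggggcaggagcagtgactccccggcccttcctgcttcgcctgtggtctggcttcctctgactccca
OPCML: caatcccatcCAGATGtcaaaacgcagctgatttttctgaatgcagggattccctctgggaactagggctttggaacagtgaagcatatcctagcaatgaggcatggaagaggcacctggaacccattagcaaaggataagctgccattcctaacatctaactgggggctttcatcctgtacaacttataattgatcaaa
STT3B: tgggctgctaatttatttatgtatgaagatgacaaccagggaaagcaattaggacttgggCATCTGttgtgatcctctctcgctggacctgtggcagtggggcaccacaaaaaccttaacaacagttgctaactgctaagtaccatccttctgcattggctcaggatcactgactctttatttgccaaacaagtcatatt
LOC285692: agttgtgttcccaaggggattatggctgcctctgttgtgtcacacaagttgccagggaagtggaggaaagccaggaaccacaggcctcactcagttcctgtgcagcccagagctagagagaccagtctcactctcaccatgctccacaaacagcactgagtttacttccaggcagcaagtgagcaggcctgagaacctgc
ZFR2: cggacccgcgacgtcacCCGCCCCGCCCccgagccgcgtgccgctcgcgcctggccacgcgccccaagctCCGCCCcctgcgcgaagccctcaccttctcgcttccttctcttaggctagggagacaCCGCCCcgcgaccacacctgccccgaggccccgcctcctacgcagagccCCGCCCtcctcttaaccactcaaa
HOXA4: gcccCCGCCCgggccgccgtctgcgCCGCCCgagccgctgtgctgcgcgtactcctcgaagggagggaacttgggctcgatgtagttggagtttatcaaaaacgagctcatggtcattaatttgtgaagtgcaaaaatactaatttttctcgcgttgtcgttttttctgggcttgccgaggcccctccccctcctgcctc
MGA: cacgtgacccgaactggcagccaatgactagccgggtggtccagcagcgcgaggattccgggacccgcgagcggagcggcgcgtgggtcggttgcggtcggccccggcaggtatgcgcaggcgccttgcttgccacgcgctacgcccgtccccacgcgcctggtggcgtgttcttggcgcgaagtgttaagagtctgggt

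After ARID1A silencing, most sites that closed with both shRNAs lay outside promoters, where most tested sites lie. Promoters made up 42.8% of the sites that opened with both, against 3.45% of tested sites. With both shRNAs, 8683 sites closed (2.43% of tested sites), nearest to 5149 genes, and 1265 opened (0.354%), nearest to 1206 genes. Closed sites fell from a median of 5.86 CPM in Control to 3.18 CPM in silenced cells, whereas opened sites rose from 11.9 to 17.1 CPM. The median log2 change of closed sites was -0.86 with shARID1A.2 and -0.91 with shARID1A.4, and that of opened sites was 0.49 and 0.53. Falls were deeper than rises: 36.5% of closed sites (3166) changed by at least 1 on the log2 scale, against 5.06% of opened sites (64). Changes of 2 or more occurred at 35 closed sites and no opened site. These medians describe sites chosen by the same test and are no further evidence for it.

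Taken by itself, shARID1A.2 closed 16217 sites (4.54%) and opened 2976 (0.834%), and shARID1A.4 closed 14891 (4.17%) and opened 8128 (2.28%). Averaged over both shRNAs, 19189 sites closed (5.37%) and 5972 opened (1.67%). The shRNAs also disagreed at some sites, since 266 sites closed with shARID1A.2 and opened with shARID1A.4, and 44 did the reverse. The 266 sites had a median GC content of 37.9% and 1 was a promoter, and 51.9% of them were intronic. Both contrasts use the same Control libraries, so errors of Control enter both. All 6 silenced libraries lay below all 3 Control libraries at 8560 of the 8683 closed sites and above them at 1137 of the 1265 opened sites, against 7.14% and 3.15% of all tested sites. These counts restate the calls, which were made on the same libraries. The balance of directions rested on the scaling, because 16504 sites closed and 235 opened with both shRNAs when promoters set the library scale, and the median over all tested sites moved to -0.20 from -0.01. The opened count also rested on single libraries. It was 520 without Control replicate 2, and 394, 2693 and 698 without shARID1A.2 replicates 1, 2 and 3.

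The deepest falls were at intronic and intergenic sites that lost most of their reads with either shRNA. A site could be named for a large fall or rise only where all silenced libraries lay on one side of all Control libraries, so that separation is part of the choice and no result. The 8 sites with the largest falls had log2 changes from -2.50 to -2.15, and 4 were intronic, 3 intergenic and 1 a promoter. The largest fall was in intron 10 of 10 of the long non-coding RNA gene LOC101928519 (chr6:19070343-19070857, 109880 bases from its TSS). It measured 5.34, 4.48 and 4.49 CPM in the Control libraries, 1.27, 1.10 and 0.988 CPM with shARID1A.2 and 0.687, 0.601 and 0.564 CPM with shARID1A.4. The libraries with shARID1A.4 were the lowest, and the fall was -2.50 (SE 0.17, edgeR FDR 6.26e-22). An intergenic site 182623 bases from FOXD2, a forkhead transcription factor gene (chr1:47618108-47619173), measured 9.82, 9.0 and 8.70 CPM in Control, 1.86, 1.71 and 2.29 CPM with shARID1A.2 and 1.42, 1.48 and 1.5 CPM with shARID1A.4. The 3 libraries with shARID1A.4 were again the lowest, with a change of -2.44 (SE 0.13, edgeR FDR 9.67e-28).

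A loss of like size was seen near OPCML and in SOGA3. A site 40839 bases from OPCML, which encodes a cell adhesion protein of the IgLON family (chr11:133573071-133573527), measured 4.47, 4.97 and 4.37 CPM in Control, 1.40, 1.62 and 0.988 CPM with shARID1A.2 and 0.961, 0.647 and 0.501 CPM with shARID1A.4 (log2 change -2.22, SE 0.17, edgeR FDR 4.58e-19). There too the lowest libraries were those with shARID1A.4, with 1 library of shARID1A.2 close to them. A site in intron 4 of 11 of SOGA3, nearest to LOC101928121 (chr6:127510718-127511241), measured 10, 11.8 and 9.58 CPM in Control, 1.81, 2.03 and 1.84 CPM with shARID1A.2 and 3.57, 2.50 and 2.13 CPM with shARID1A.4 (log2 change -2.18, SE 0.12, edgeR FDR 2.94e-26). This site was not lower after ARID1B silencing, at 12.4 ± 1.56 CPM with shARID1B.2 and 14.8 ± 0.608 CPM with shARID1B.3 (SD, n = 3 each). The difference between ARID1A and ARID1B silencing there was -2.56 (SE 0.10, edgeR FDR 2.03e-35).

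The remaining large falls were at RP11-95M5.1, STT3B, ERLIN1 and LOC285692. The RP11-95M5.1 site, in intron 2 of 19 of FGD5, a CDC42 exchange factor gene, went from 2.27 ± 0.329 CPM in Control to 0.592 ± 0.0555 CPM with shARID1A.2 and 0.392 ± 0.102 CPM with shARID1A.4 (log2 change -2.22, SE 0.22, edgeR FDR 5.56e-14). The site upstream of STT3B, a catalytic subunit of the oligosaccharyltransferase, went from 2.15 ± 0.326 CPM to 0.409 ± 0.0728 and 0.497 ± 0.295 CPM (log2 change -2.20, SE 0.23, edgeR FDR 1.39e-12). In the last intron of ERLIN1, which encodes a protein of the endoplasmic reticulum, Control measured 5.79 ± 0.569 CPM and the shRNAs differed from each other. There, shARID1A.2 measured 2.17 ± 0.351 CPM and shARID1A.4 0.794 ± 0.225 CPM, a difference between shRNAs of 1.47 (SE 0.25, edgeR FDR 8.89e-06). Of the 8 sites, 4 were lower after ARID1A than after ARID1B silencing, a call made at 3.69% of tested sites, but the sites were chosen on the same ARID1A libraries and nothing is read from this count. All 8 also changed after ARID1B silencing, with the LOC101928121 site rising there by 0.38 (SE 0.10, edgeR FDR 0.00917).

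The largest rises were smaller and began from low levels. The 8 sites with the largest rises had log2 changes from 1.24 to 1.65, and 6 were intergenic, 1 was intronic and 1 was a promoter. An intergenic site 668357 bases from LINC00358 (chr13:62697587-62698224) measured 0.770, 0.699 and 0.762 CPM in Control, 2.17, 2.36 and 2.02 CPM with shARID1A.2 and 3.07, 2.26 and 2.07 CPM with shARID1A.4 (log2 change 1.65, SE 0.20, edgeR FDR 4.42e-10). A site 522953 bases from MIR1261 (chr11:91391856-91392447) measured 1.59, 1.60 and 1.20 CPM in Control, 4.21, 4.39 and 4.36 CPM with shARID1A.2 and 4.26, 4.48 and 4.26 CPM with shARID1A.4 (log2 change 1.57, SE 0.16, edgeR FDR 1.02e-13). At both sites the ranges of the 2 shRNAs overlapped. The MIR1261 site measured 1.90 ± 0.212 CPM with shARID1B.2 and 4.55 ± 0.126 CPM with shARID1B.3. With both genes silenced it measured 4.49 ± 0.528 CPM (shARID1A/B.2.3) and 1.29 ± 0.318 CPM (shARID1A/B.4.2), the latter near the Control level.

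In intron 6 of 20 of COG5, a subunit gene of a Golgi tethering complex, a site nearest to the orphan receptor gene GPR22 (chr7:107485167-107486302) measured 1.68, 1.64 and 1.44 CPM in Control, 2.90, 2.48 and 3.23 CPM with shARID1A.2 and 5.40, 5.59 and 5.51 CPM with shARID1A.4. The groups formed 3 separate levels, and the shRNAs differed by -0.94 (SE 0.15, edgeR FDR 2.31e-06). The sites named for MIR3194, STMN2, ZFR2, ZNF469 and LOC100131138 rose by 1.59, 1.28, 1.26, 1.24 and 1.24 on the log2 scale. The STMN2 site, 360953 bases from the gene of a neuronal regulator of microtubules, went from 1.10 ± 0.257 CPM in Control to 2.24 ± 0.313 CPM with shARID1A.2 and 3.15 ± 0.658 CPM with shARID1A.4 (edgeR FDR 2.53e-07). Of the 8 rises, 6 were higher after ARID1A than after ARID1B silencing, a call made at 1.05% of tested sites, and 3 were called after ARID1B silencing. The choice on the ARID1A libraries favours the first count, and nothing is read from it.

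**Figure D1:**
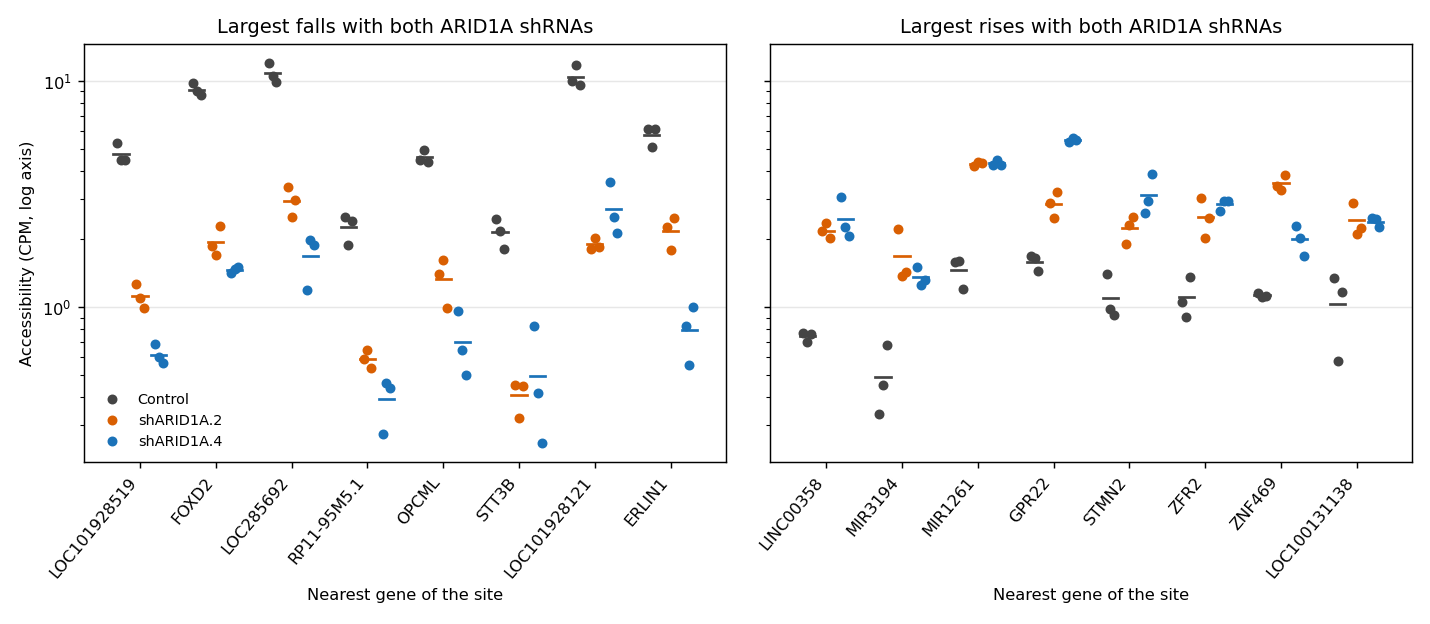
Accessibility (CPM, log axis) of the 8 sites with the largest falls and the 8 with the largest rises with both ARID1A shRNAs, with a point for each library and a bar at the mean of 3 libraries. Separation from Control was part of the choice of these sites. The shRNAs were called different at ERLIN1 (2.17 and 0.794 CPM), LOC285692 (2.96 and 1.69 CPM), GPR22 (2.87 and 5.50 CPM) and ZNF469 (3.53 and 2.00 CPM).

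Site classes moved in opposite directions. The 96 closed promoters were 1.11% of closed sites and the 542 opened promoters 42.8% of opened sites, whereas 3.45% of tested sites were promoters. Introns held 46.8% of closed, 25.6% of opened and 43.1% of tested sites, and intergenic sequence held 48.7%, 19.9% and 48.7%. Closed sites lay a median of 51.6 kb from the TSS and opened sites 756 bases, against 50.7 kb over all tested sites. The median GC content was 45% for closed, 61.9% for opened and 46.9% for tested sites, and the median length was 1283, 1560 and 788 bases. GC content and distance therefore moved together with the direction of change, and with offsets for GC content in each library the promoter share of opened sites was 25.4%. Their separate parts in the result were not tested.

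Stronger sites carry more reads and are called more easily, so classes were also described among sites with a mean of at least 5 CPM over the 9 libraries, a level chosen for this description. At that level 16.5% of intergenic sites and 13% of intronic sites closed with both shRNAs, compared with 2.24% of exonic sites and 0.601% of promoters. Conversely, 6.34% of promoters opened with both, compared with 3.49% of exonic, 1.78% of intronic and 1.41% of intergenic sites. At that level the share that closed was higher farther from the TSS, from 0.511% within 1 kb and 5.06% at 1 to 3 kb to 13.5% at 10 to 50 kb and 19.9% at 100 to 500 kb. Over all tested sites this order was not seen beyond 1 kb, with 2.83% closed at 1 to 3 kb, 2.58% at 10 to 50 kb, 2.46% at 100 to 500 kb and 1.30% over 500 kb. The share that opened, among sites of at least 5 CPM, fell from 5.54% within 1 kb to 0.60% at 100 to 500 kb. Over all sites of at least 5 CPM, 9.91% closed and 2.93% opened. Levels still differed above this cut, with medians of 20.2 CPM for promoters, 15.6 for exonic, 8.42 for intronic and 7.62 for intergenic sites. At 5 to 10 CPM 13.4% of sites closed and 1.16% opened, against 6.97% and 4.67% at 10 to 50 CPM. The part of level in the shares by class and distance was not tested. The first and later introns were alike among all tested sites, with 2.62% and 2.65% closed.

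**Figure D2:**
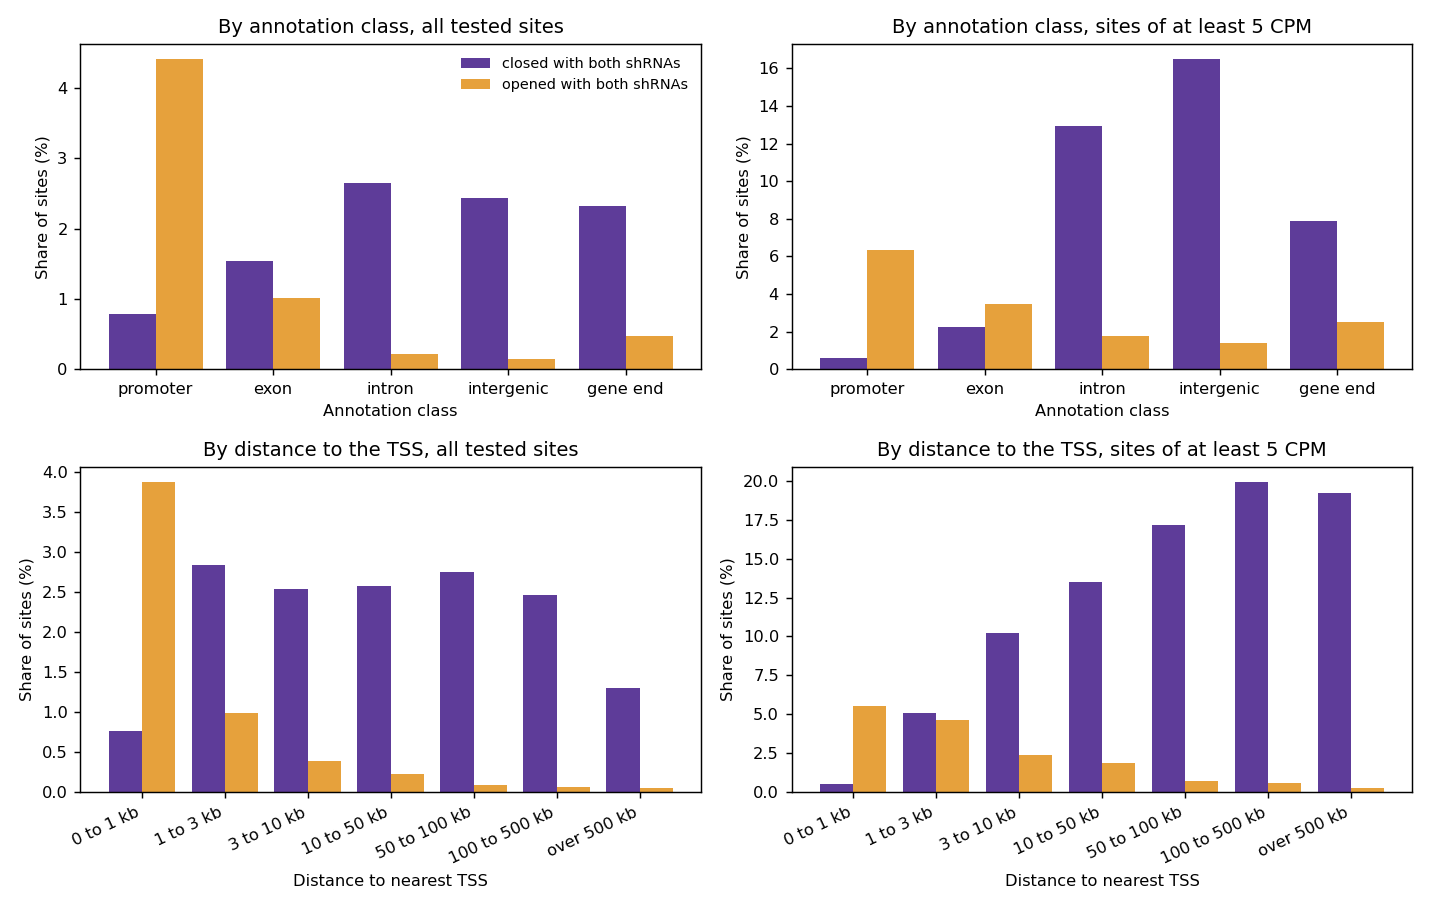
Share of sites (%) that closed or opened with both ARID1A shRNAs, by annotation class (top) and by distance to the nearest TSS (bottom), for all tested sites (left) and for sites with a mean of at least 5 CPM over the 9 libraries (right). Promoters opened (4.40% of tested promoters) more often than they closed (0.780%), and among sites of at least 5 CPM the closed share grew from 0.511% within 1 kb to 19.9% at 100 to 500 kb, whereas among all tested sites it was 2.83% at 1 to 3 kb and 2.46% at 100 to 500 kb.

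Chromosomes differed in the same respect. The share of tested sites that closed with both shRNAs ran from 1.10% on chromosome 19 to 4.23% on chromosome 15, and the share that opened was highest on chromosome 19, at 3.18%. Sites on chromosome 19 had a median GC content of 59.4% and a median log2 change of 0.23, and those on chromosome 15 had 50.8% and -0.06.

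Without calling any site, the reads of each library were summed by class. Promoter sites held 20.6%, 20.0% and 20.4% of the reads of the Control libraries, 24%, 21.7% and 22.5% with shARID1A.2 and 24.1%, 23.4% and 22.9% with shARID1A.4. All silenced libraries were above all Control libraries, and the difference of means was 2.78 percentage points (two-sided exact permutation test over 84 splits, p = 0.0238, the smallest it can give, adjusted over 5 classes 0.0397). Exonic sites gained 0.706 points (permutation p = 0.0238, adjusted 0.0397) and intronic sites lost 1.60 points, from 35.5% ± 0.251 (SD, n = 3) to 33.9% ± 0.406 (SD, n = 6; exact permutation p = 0.0238, adjusted 0.0397). Intergenic sites went from 35.2% ± 0.746 to 33.2% ± 1.16, with overlapping libraries (exact permutation p = 0.0714, adjusted 0.0893). Gene ends changed by 0.0498 points (exact permutation p = 0.214).

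Promoters that opened did so by small steps, with a median log2 change of 0.45 and a median of 18.9 CPM in Control. The 5 largest rises at promoters were at ZFR2, SNAR-B1, ZNF556, HOXA4 and MGA, with log2 changes from 1.26 to 0.98. The promoter of the zinc finger gene ZNF556 (chr19:2866630-2867628) measured 5.63, 4.31 and 5.41 CPM in Control, 14.1, 9.63 and 11.5 CPM with shARID1A.2 and 11.4, 8.64 and 9.83 CPM with shARID1A.4 (log2 change 1.08, SE 0.12, edgeR FDR 1.23e-11). That of ZFR2, whose 200 bases above hold 5 matches to GGGCGG, measured 1.06, 0.904 and 1.36 CPM in Control, 3.03, 2.03 and 2.47 CPM with shARID1A.2 and 2.66, 2.96 and 2.94 CPM with shARID1A.4 (log2 change 1.26, SE 0.21, edgeR FDR 2.11e-06). At both promoters the ranges of the 2 shRNAs overlapped.

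HOXA4, a homeobox gene of anterior-posterior patterning, had a promoter site (chr7:27129917-27131515) with 2.69, 1.93 and 2.33 CPM in Control, 4.53, 5.20 and 5.03 CPM with shARID1A.2 and 5.26, 4.11 and 4.57 CPM with shARID1A.4 (log2 change 1.05, SE 0.14, edgeR FDR 7.77e-09). The promoter of MGA, which encodes a partner of MAX in repressive complexes, went from 5.22 ± 1.36 CPM to 9.27 ± 1.74 CPM with shARID1A.2 and 11.4 ± 0.876 CPM with shARID1A.4 (edgeR FDR 2.05e-09). Of these 5 promoters, 3 (ZFR2, ZNF556 and HOXA4) measured higher after ARID1A than after ARID1B silencing, which the choice on the ARID1A libraries favours, and none was called different between the shRNAs.

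Closed promoters were rare. The largest promoter fall was at LOC285692 (chr5:9903481-9904491, 162 bases from its TSS), with 12.0, 10.6 and 9.94 CPM in Control, 3.40, 2.52 and 2.96 CPM with shARID1A.2 and 1.19, 1.99 and 1.88 CPM with shARID1A.4 (log2 change -2.28, SE 0.13, edgeR FDR 8.43e-27). A promoter site of PAMR1 (chr11:35529664-35531229) measured 13.6, 13.1 and 14.4 CPM in Control, 6.11, 5.32 and 5.70 CPM with shARID1A.2 and 2.33, 2.68 and 3.01 CPM with shARID1A.4 (log2 change -1.81, SE 0.11, edgeR FDR 2.90e-25). In both cases shARID1A.4 gave the lower level, and the shRNAs differed by 0.82 (SE 0.20, edgeR FDR 0.00443) at LOC285692 and by 1.11 (SE 0.15, edgeR FDR 5.47e-08) at PAMR1. Promoter sites of TAC3, which encodes the neuropeptide neurokinin B, of CLIC2, a chloride intracellular channel gene, and of TMEM204, nearest to IFT140, fell by 1.43, 1.32 and 1.32 on the log2 scale. The TAC3 site carries the promoter label but lay 7520 bases from the nearest annotated TSS.

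Closed sites gathered at some loci. Of 26739 genes with a tested site, 5149 had a site that closed with both shRNAs, 1206 had a site that opened and 176 had both. At least 5 closed sites were found at 202 genes, and 10 or more at 8 genes. The gene with the most was ETS1, the founding gene of the ETS transcription factor family, with 17 of 131 tested sites closed over 606.59 kb (chr11:127901301-128507890). SNORA70C, a small nucleolar RNA gene in a stretch that overlaps ASTN2, a gene of neuronal migration, had 16 of 126. TRABD2B, whose product inhibits WNT ligands, had 14 of 29, and AGPAT4, EFNA5, PLXNA2, LOC101927801 and LOC102724949 had 13 of 172, 13 of 134, 12 of 71, 10 of 257 and 10 of 216. The share at TRABD2B was 48.3%, and those at PLXNA2 and ETS1 were 16.9% and 13%. Genes with many sites have more chances to hold a called site, and no test of these counts was made.

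The reads summed over all tested sites of a gene were lower at ETS1 and TRABD2B. These sums include the closed sites for which the genes were chosen and are no further evidence. At ETS1 the sum was 560, 554 and 557 CPM in the Control libraries, 446, 440 and 450 CPM with shARID1A.2 and 396, 409 and 390 CPM with shARID1A.4. At TRABD2B it was 87.1, 75.0 and 88.2 CPM in Control, 50.3, 41.5 and 46.5 CPM with shARID1A.2 and 44.5, 41.5 and 42.5 CPM with shARID1A.4. Both genes had all silenced libraries below all Control libraries.

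The longest run of neighbouring sites that all closed with both shRNAs was also at TRABD2B, with 7 sites over 85.2 kb (chr1:47797446-47882620) and log2 changes from -1.95 to -0.92. Their summed level was 33.8, 31.8 and 36.8 CPM in Control, 17.3, 13.2 and 16.2 CPM with shARID1A.2 and 14.4, 11.6 and 13 CPM with shARID1A.4. The 1 Mb window with the highest closed share, of 2792 windows with at least 20 tested sites, held this run and the FOXD2 site shown above, with 18 of 61 sites closed (29.5%, against a median window of 2.22%). The next windows were on chromosome 6 from 23000001, with 8 of 32 sites (25%), and on chromosome 3 from 40000001, around MYRIP and ZNF621, with 7 of 30 (23.3%).

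**Figure D3:**
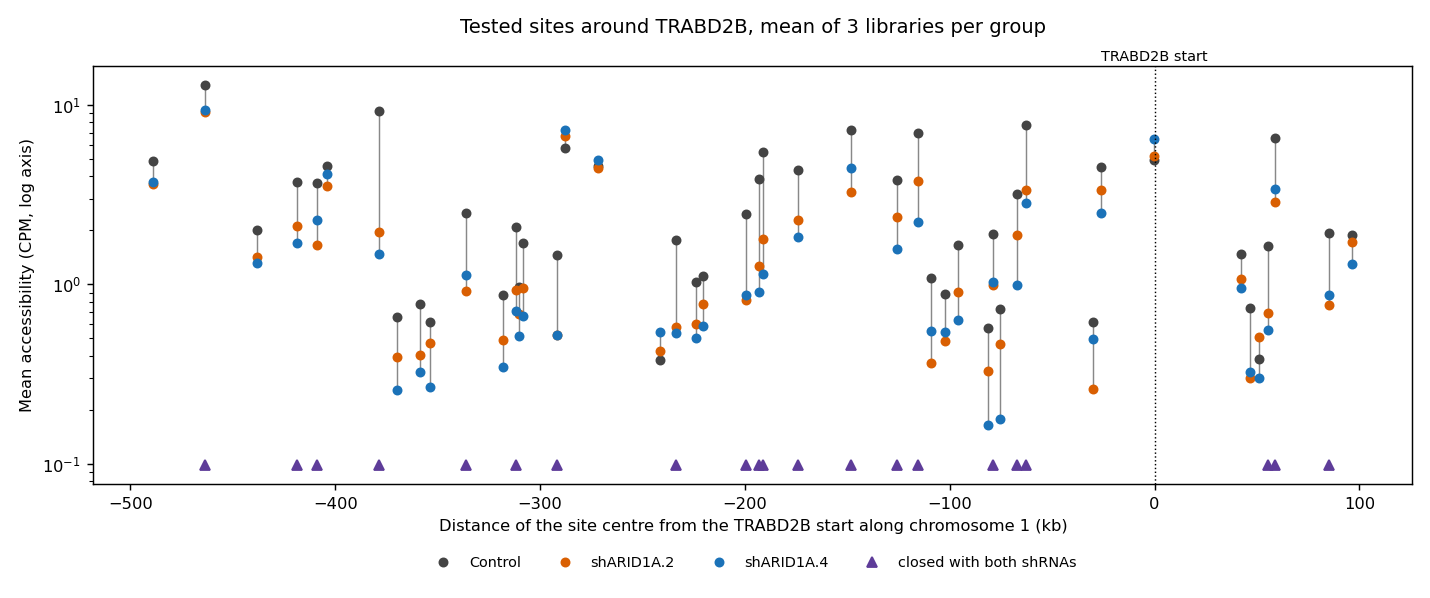
Mean accessibility (CPM, log axis, 3 libraries per group) of the 47 tested sites in a stretch of chromosome 1 around TRABD2B, by distance from the TRABD2B start (kb), with grey lines joining the groups at a site and triangles under sites that closed with both shRNAs. Both shRNAs lay below Control at 42 of the 47 sites, and 21 sites closed with both.

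Other runs were shorter. On the X chromosome 5 neighbouring sites near PLAC1 closed over 60.7 kb (chrX:134683278-134743959), from 25.4 ± 0.762 CPM in Control to 14.6 ± 0.299 CPM with shARID1A.2 and 13.4 ± 0.625 CPM with shARID1A.4. On chromosome 2, 4 sites in a stretch that overlaps ANTXR1, a collagen-binding receptor gene, closed over 26.1 kb, from 19.0 ± 1.74 CPM to 9.65 ± 0.787 and 8.44 ± 0.407 CPM. Of the 8683 closed sites, 7214 had no closed site as a neighbour.

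Opened sites seldom clustered, with 5 runs of 3 sites and none longer. The genes with the most opened sites were LINC00963 (4 of 16 tested), DDIT4 (3 of 7), WFS1 (3 of 17), SLC19A1 (3 of 15), followed by 50 genes with 2 opened sites each, of which MDM4 (2 of 10, with 1 closed) had the smallest p at any of its tested sites. DDIT4 encodes an inhibitor of mTORC1 induced by stress, WFS1 a membrane protein of the endoplasmic reticulum, SLC19A1 the reduced folate carrier and MDM4 an inhibitor of p53. The 3 opened neighbours at DDIT4 (chr10:72259613-72298710) summed to 61.8, 49.3 and 61.4 CPM in Control, 87.2, 69.1 and 78.6 CPM with shARID1A.2 and 89.6, 80.8 and 80.2 CPM with shARID1A.4. A run of 3 at DBP, a circadian bZIP factor gene, and CA11 (chr19:48634433-48646873) rose from 19.0 ± 2.54 CPM to 29.4 ± 2.43 and 28.1 ± 1.25 CPM. Silenced libraries were above Control in both runs, which the choice of called sites favours.

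Of 14 motifs counted in the central 200 bases of each site, on both strands, the E-box CATCTG had the widest gap between closed and tested sites. It was present in 26.8% of closed, 4.74% of opened and 16% of all tested sites. The E-box CAGCTG was in 17.3%, 9.41% and 12.2%, and the GATA motif AGATAA in 16.1%, 4.74% and 11.7%. The AP-1 motif TGANTCA differed less, at 8.90% of closed and 7.38% of tested sites. The letters of CCAAT, a motif of NFY, were in 28.1% of closed and 25.4% of tested sites. Closed sites were also poorer in GC than opened ones, and the part of base composition in these shares was not tested.

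Among sites outside promoters with a mean of at least 5 CPM, 20.5% of those with CATCTG closed with both shRNAs (841 of 4111), against 11.4% of those without it (2607 of 22860), and the median GC content was 48.5% and 51.4%. The closed share was 17.9% of 2891 with AGATAA and 16.2% of 1742 with TGANTCA, against 12.2% and 12.5% without them. It was also 17.0% with ACAATG of SOX factors, 16.9% with CCAAT and 16.4% with CAGCTG. Sites with the CTCF motif closed less often, at 6.55% of 595.

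GGGCGG, the box of SP and KLF factors, was present in 49.9% of opened, 6.67% of tested and 3.67% of closed sites. Among promoters it was in 67.9% of those that opened and in 43.8% of all tested ones. GCCNNNGGC, an AP-2 motif, was in 22.5% of opened and 6.73% of tested sites (25.1% of opened and 22.0% of tested promoters). The NRF1 motif was in 3.56% and 0.201% of sites (5.90% of opened and 3.70% of tested promoters). CCGGAAGT of ETS factors was in 1.74% and 0.241% of sites, but in 2.77% of opened and 2.94% of tested promoters. The remaining motifs (GGAATG of TEAD, ACAATG of SOX, TGTGGT of RUNX and the NFI palindrome) were within 2 percentage points between closed and tested sites. Among sites outside promoters of at least 5 CPM, ACAATG was in 10.5% of closed and 7.91% of all sites. In a window of 400 bases CATCTG was in 45.3% of closed and 29.3% of tested sites, and GGGCGG in 66.0% of opened and 11.1% of tested sites.

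**Figure D4:**
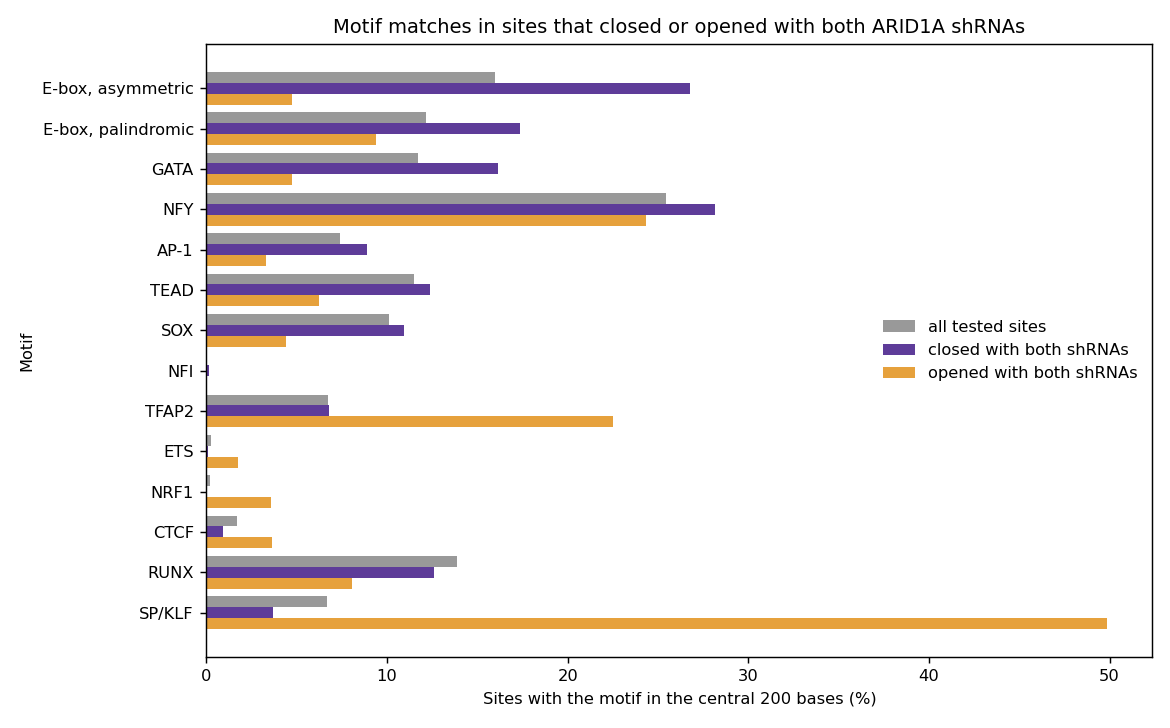
Share of sites (%) with a match to each of 14 motifs in the central 200 bases, for all tested sites and for sites that closed or opened with both ARID1A shRNAs. The asymmetric E-box was in 26.8% of closed and 16% of tested sites, and the SP/KLF box in 49.9% of opened and 6.67% of tested sites.

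Gene lists of the lineage were then described by the sites nearest to their members. Each site named from a list was the called site of its gene with the smallest p, a choice that favours separation from Control. Of 639 tested sites of 24 adrenergic transcription factor genes, 32 closed with both shRNAs (5.01%, against 2.43% of all tested sites) and none opened, or 2 with library totals only. The closed sites belonged to 14 genes, among them DACH1 and KLF13 with 5 each, MYCN and TFAP2B with 3 each, and ISL1 with 2. The region around MYCN is rich in reads, as given above, and sites with more reads are called more easily. The median log2 change over the list was -0.03, against -0.01 over all tested sites, and the median level was 1.37 CPM against 1.02 CPM. None of the 18 promoter sites of these genes was called with both shRNAs. With promoter scaling the closed count rose in this list to 59 and in each of the lists described below except the epithelial markers, as it did over all sites.

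DACH1, a transcription factor gene of the adrenergic circuit, was represented by an intergenic site 341335 bases away (chr13:72208094-72208961). It measured 6.64, 7.48 and 6.41 CPM in Control, 3.35, 3.66 and 2.96 CPM with shARID1A.2 and 3.11, 2.91 and 3.32 CPM with shARID1A.4 (log2 change -1.09, SE 0.12, edgeR FDR 1.32e-11). The silenced libraries were all below Control. A site 25499 bases upstream of KLF13 went from 14.8 ± 2.78 CPM to 7.59 ± 0.523 CPM with shARID1A.2 and 9.28 ± 0.174 CPM with shARID1A.4 (log2 change -0.82, SE 0.10, edgeR FDR 2.18e-10).

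Of 387 sites of 25 mesenchymal transcription factor genes, 5 closed (1.29%) and 1 opened, so their share lay below that of all tested sites. TBX18 had 2 of the closed sites and FOSL2, RUNX1 and YAP1 had 1 each. FOSL2, a FOS family member of AP-1, moved in both directions. Its promoter site (chr2:28390079-28393727) measured 77.8, 62.7 and 76.0 CPM in Control, 104, 79.8 and 87.9 CPM with shARID1A.2 and 114, 97.6 and 98.7 CPM with shARID1A.4, and rose by 0.42 (SE 0.08, edgeR FDR 1.17e-05). A site 41791 bases upstream of it fell from 4.13 ± 0.949 CPM to 2.47 ± 0.30 and 1.92 ± 0.291 CPM, by 0.92 on the log2 scale (edgeR FDR 1.54e-06). The list had 13 closed sites with promoter scaling and 1 with DESeq2, and no site opened with both shRNAs under offsets for GC content, promoter scaling or DESeq2.

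Among genes of catecholamine synthesis and storage, 6 of 154 sites closed (3.90%) and 1 opened. The largest closed example lay 19615 bases upstream of SLC18A2, which encodes the vesicular monoamine transporter that loads catecholamines into vesicles (chr10:117221072-117221845). It measured 9.48, 8.51 and 7.46 CPM in Control, 3.76, 2.60 and 3.46 CPM with shARID1A.2 and 2.98, 2.73 and 2.63 CPM with shARID1A.4 (log2 change -1.49, SE 0.12, edgeR FDR 5.99e-18). All silenced libraries were below Control, and the fall was deeper than after ARID1B silencing by 1.11 (SE 0.10, edgeR FDR 1.10e-14). The chromogranin genes encode granule proteins, and the median log2 change over all their tested sites was -0.16 for CHGA (14 sites) and -0.10 for CHGB (15 sites). An intronic site nearest to CHGA fell by 0.75 (SE 0.10, edgeR FDR 1.59e-09), and a site in exon 1 of 5 of CHGB rose from 19.7 ± 0.949 CPM to 26.6 ± 2.57 and 29.2 ± 3.07 CPM (log2 change 0.50, SE 0.08, edgeR FDR 2.71e-06).

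Of 670 sites of growth factor signalling genes of the neural crest, 23 closed (3.43%) and none opened. GFRA2, the neurturin co-receptor, EDN3, an endothelin, and ALK, the receptor kinase mutated in some neuroblastomas, had 3 closed sites each, and RET, GDNF, EDN2 and BDNF had 2 each. The GFRA2 site (chr8:21666198-21668109, 122146 bases from the TSS) measured 11.1, 9.45 and 12.3 CPM in Control, 4.44, 3.57 and 3.91 CPM with shARID1A.2 and 5.17, 4.25 and 5.32 CPM with shARID1A.4 (log2 change -1.31, SE 0.11, edgeR FDR 1.32e-16). The EDN3 site fell with both shRNAs but more with shARID1A.4, at 9.80 ± 1.74 CPM in Control, 6.71 ± 0.871 CPM with shARID1A.2 and 3.52 ± 0.160 CPM with shARID1A.4 (difference between shRNAs 0.93, SE 0.16, edgeR FDR 7.73e-06).

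Integrins, the receptors by which cells hold on to the matrix, had the highest closed share of the lists, with 19 of 265 sites of 25 genes (7.17%) closed and none opened. The study picked this family from its results after silencing of both genes, which share the Control libraries used here, so the count is not independent evidence. The closed sites belonged to 10 genes, ITGA4, ITGA9 and ITGB6 with 3 each, ITGA1, ITGA6 and ITGAV with 2 each, and ITGA2, ITGA8, ITGA11 and ITGB1 with 1 each. The other integrin genes had none. Among them was ITGB3, with 5 tested sites and a median log2 change of 0.26. Over the whole list the median log2 change was -0.05, against -0.01 over all tested sites. In intron 22 of 27 of ITGA4 (chr2:181528488-181529092) Control measured 3.70, 3.53 and 3.17 CPM, shARID1A.2 1.40, 1.34 and 1.08 CPM and shARID1A.4 0.549, 0.786 and 0.501 CPM (log2 change -1.95, SE 0.18, edgeR FDR 2.10e-15). In intron 14 of 27 of ITGA9 (chr3:37537413-37538771) Control measured 7.51, 5.71 and 8.02 CPM, shARID1A.2 3.21, 3.66 and 3.55 CPM and shARID1A.4 2.84, 2.91 and 2.76 CPM (log2 change -1.17, SE 0.12, edgeR FDR 2.99e-13). At both sites the groups did not overlap, and the choice of sites favours their separation from Control.

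Cadherins, which join cells to each other, had 20 of 890 sites closed (2.25%) and none opened, a share close to that of all tested sites. CDH2, which encodes N-cadherin, had 4 closed sites and CDH11, a mesenchymal cadherin gene, had 3. The CDH11 site (chr16:64878245-64880248) measured 15.7, 17.4 and 16.1 CPM in Control, 8.56, 7.84 and 8.26 CPM with shARID1A.2 and 6.32, 7.63 and 5.39 CPM with shARID1A.4 (log2 change -1.17, SE 0.09, edgeR FDR 1.11e-17). Genes of basement membrane and matrix had 14 of 563 sites closed (2.49%) and 1 opened. An intronic site of COL1A2, an alpha chain gene of type I collagen, fell by 0.95 (SE 0.11, edgeR FDR 6.76e-11) and a site upstream of LAMB1, a laminin chain gene, by 0.88 (SE 0.10, edgeR FDR 8.72e-11), whereas a site in intron 1 of COL1A1 rose by 0.47 (SE 0.09, edgeR FDR 0.000127).

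Axon guidance genes had 73 of 2038 sites closed (3.58%) and 6 opened. The closed sites belonged to 24 genes, led by the ephrin ligand EFNA5 with 13, the semaphorin receptor PLXNA2 with 12 and its partner NRP2 with 9. The PLXNA2 site named here (chr1:208499860-208501512) measured 6.98, 5.63 and 6.33 CPM in Control, 2.94, 3.17 and 2.61 CPM with shARID1A.2 and 2.01, 2.82 and 2.00 CPM with shARID1A.4 (log2 change -1.28, SE 0.13, edgeR FDR 2.19e-13). After ARID1B silencing it measured 4.63 ± 0.547 and 6.07 ± 0.598 CPM, and the difference between the genes was -1.03 (SE 0.11, edgeR FDR 5.33e-12). An EFNA5 site fell with both shRNAs (log2 change -0.85, SE 0.09, edgeR FDR 2.61e-12). In intron 1 of 16 of UNC5D, a netrin receptor gene, a site rose from 3.35 ± 0.0226 CPM to 5.0 ± 0.308 and 5.08 ± 0.491 CPM (log2 change 0.59, SE 0.13, edgeR FDR 0.000552), with an FDR of 0.0333 when scaled on promoter sites.

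Subunit genes of BAF, PBAF and ncBAF had 15 of 369 sites closed (4.07%) and 5 opened (1.36%, against 0.354% of all tested sites). SS18, which encodes a BAF subunit, had 4 closed sites, DPF3 had 3, and BRD7 and ARID1B had 2 each, and opened sites were near ARID1A, SMARCB1, GLTSCR1 and SMARCA4. The opened count was 7 with library totals only, 3 with offsets for GC content, 2 with DESeq2 and 1 with promoter scaling. The SS18 site lay 247714 bases from the TSS (chr18:25842651-25843140) and went from 2.11 ± 0.0264 CPM to 0.651 ± 0.0987 CPM with shARID1A.2 and 0.818 ± 0.219 CPM with shARID1A.4 (log2 change -1.52, SE 0.20, edgeR FDR 5.55e-09). A site in intron 3 of 10 of DPF3 fell by 0.93 (SE 0.11, edgeR FDR 8.08e-11).

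An shRNA acts on the transcript, so accessibility at the targeted gene is no check of the knockdown. Of the 4 tested sites of ARID1A, 2 opened with both shRNAs. The site 59176 bases upstream (chr1:26636461-26637249) measured 3.27, 2.30 and 3.77 CPM in Control, 6.34, 3.86 and 6.47 CPM with shARID1A.2 and 7.10, 5.50 and 5.82 CPM with shARID1A.4 (log2 change 0.91, SE 0.14, edgeR FDR 4.36e-07). A site 3186 bases upstream (chr1:26692244-26693447) went from 8.21 ± 1.42 CPM to 11.3 ± 0.951 and 12.4 ± 0.472 CPM (log2 change 0.53, SE 0.11, edgeR FDR 0.000123). Both sites also rose after ARID1B silencing, by 0.64 (SE 0.14, edgeR FDR 0.00071) and 0.45 (SE 0.11, edgeR FDR 0.00212). Neither was called different between ARID1A and ARID1B silencing (edgeR FDR 0.121 and 0.673). GENCODE, a second gene annotation, places the ARID1A start 391 bases from the opened site at 3186 bases. The site annotated as the promoter lies 2560 bases from that start. The promoter site measured 8.71 ± 1.70 CPM with shARID1A.2 and 9.29 ± 1.20 CPM with shARID1A.4 against 6.86 ± 1.52 CPM in Control, which was not past the threshold (log2 change 0.40, SE 0.12, edgeR FDR 0.0141). That site lay close to the threshold and was called in edgeR with the replicate number as a block (FDR 0.00656), with library totals only (0.00545), without the filter (0.00711) and with only the 9 libraries (0.00864). Of the 12 tested sites of ARID1B, 2 intergenic sites closed with both shRNAs, by 0.95 (SE 0.19, edgeR FDR 0.000106) and 0.74 (SE 0.11, edgeR FDR 2.05e-07), and the site nearest to its TSS, at 729 bases, had a change of 0.22 (SE 0.07, edgeR FDR 0.0386, and 0.00791 with library totals only).

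AP-1 and related bZIP genes had 12 of 229 sites closed (5.24%) and 4 opened (1.75%). MAF had 6 of the closed sites and BACH2, a bZIP repressor gene, had 3, whereas the opened sites were near JUND, JUNB, FOSB and FOSL2. The JUND site, in its single exon (chr19:18279513-18282577), measured 31.6, 29.1 and 34.1 CPM in Control, 53.2, 36.1 and 42.6 CPM with shARID1A.2 and 50.7, 42.9 and 42.9 CPM with shARID1A.4 (log2 change 0.50, SE 0.08, edgeR FDR 1.50e-06). A MAF site in the last intron of WWOX (chr16:78984215-78985930) fell from 12.8 ± 0.372 CPM to 6.32 ± 0.673 and 5.92 ± 0.892 CPM (log2 change -1.06, SE 0.10, edgeR FDR 8.92e-15). The list had 1 opened site with offsets for GC content, 1 with promoter scaling and 8 with library totals only.

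Genes of the G1 to S transition had 1 of 268 sites closed (0.373%) and 2 opened (0.746%). The closed site was near E2F6, a repressor of E2F targets, and fell by 0.88 (SE 0.12, edgeR FDR 3.27e-08). Both opened sites were near CDKN1C, which encodes the CDK inhibitor p57, and that in its first exon went from 18.3 ± 0.914 CPM to 24.3 ± 2.42 and 24.6 ± 3.29 CPM (log2 change 0.42, SE 0.09, edgeR FDR 0.00024), with an FDR of 0.134 under offsets for GC content and 0.0145 under promoter scaling. With library totals only the list had 5 opened sites, and with promoter scaling none. Cytosolic ribosomal protein genes, which every cell uses, had 6 of 353 sites closed (1.70%) and 3 opened (0.850%). Their closed sites lay near RPS29 (4), RPL15 and RPS4X, and the opened ones near RPL31, RPL8 and RPL38. With library totals only 9 sites of this list opened and 5 closed, with promoter scaling none opened and 10 closed, and the opened count ran from 0 to 10 when 1 library was left out. Among markers of other cell types, none of 24 Schwann cell sites, 1 of 29 leukocyte sites (PTPRC) and none of 11 epithelial sites closed, and none opened.

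**Figure D5:**
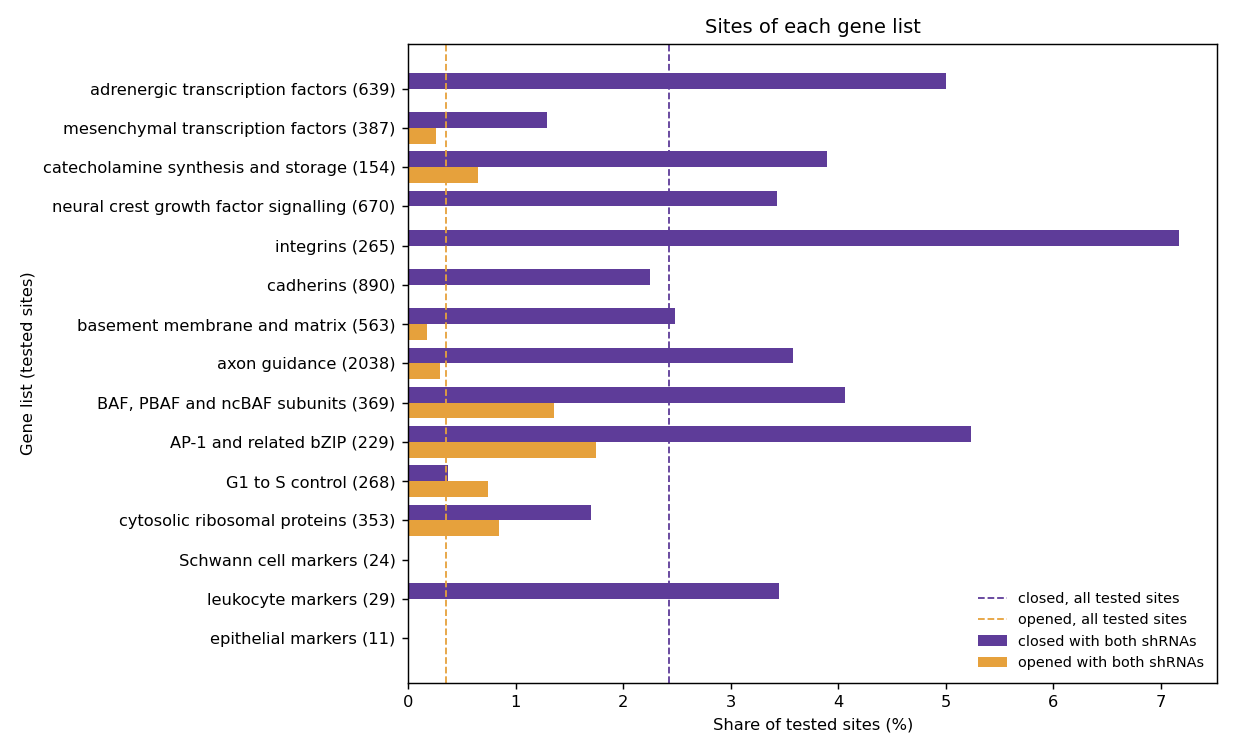
Share of tested sites (%) that closed or opened with both ARID1A shRNAs for each of 15 gene lists, with the number of tested sites in parentheses and dashed lines at the share of all tested sites (2.43% closed and 0.354% opened). Integrins (7.17%), AP-1 and related bZIP genes (5.24%) and adrenergic transcription factors (5.01%) had the highest closed shares. Cadherins (2.25%), ribosomal proteins (1.70%), mesenchymal transcription factors (1.29%), G1 to S genes (0.373%), Schwann cell and epithelial markers (0% each) lay below the line.

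Closed sites of ARID1A silencing were also examined after the other silencings of the series, which share the Control libraries. The 8683 closed sites had a median log2 change of -0.55 after ARID1B silencing and of -1.27 after silencing of both genes, and the 1265 opened sites had medians of 0.36 and 0.56. Each of these changes is measured against the same Control libraries that chose the sites.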

How the data were processed

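The authors deposited raw read counts per consensus site for all 21 libraries, with sites called on merged replicates. Their normalised columns and the columns of their own comparisons (fold changes and p-values) were not used. The sources used here do not give the aligner, the peak caller or any read shifting. Sites passing edgeR's filterByExpr (minimum count 10) were kept, 357029 of 367900. They were fitted in R 4.3.3 with edgeR 4.0.16 (TMM scaling, quasi-likelihood test, 7 groups of 3 libraries in 1 model), and p-values were adjusted over all tested sites by the Benjamini-Hochberg method, with an FDR threshold of 0.01. The contrast was the mean of both ARID1A shRNAs minus Control, and each shRNA was also tested alone. Read shares were compared by an exact permutation test (scipy 1.17.1, Python 3.11.15). The fit was also tried on simulated counts, and the outcome is not reported here. Each of the 9 libraries held 16140029 to 25188802 counts. The edgeR p-values rest on the spread within groups over all 21 libraries, and the permutation p-values on the 9 libraries.

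Named sites were the 8 largest falls and 8 largest rises and the 5 largest of each at promoters, all averaging 1 CPM or more and without overlap between silenced and Control libraries, the sites of ARID1A and, for ARID1B, the called ones and that nearest to its TSS, and for each gene list the leading site of the 2 genes with most closed sites and of the gene with most opened sites. Genes were named for the most closed (8) or opened (5) sites, and loci for the longest runs or the highest closed share (3 each). The members and the 15 lists were chosen with earlier results of these data known. Sequences were read from GRCh38 in a window of 200 bases. Alternatives covered the scaling, GC content in 50 bins, DESeq2 1.42.0, the filter, the libraries fitted, the replicate number as a block, the threshold and leaving out each library. Some items of the lists, motifs and sequences are not reported here.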

Additional observations from a re-analysis of the deposited data

Results flagged for a closer look

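At 8 of the 61 named sites the change differed between the 2 shRNAs, tested as the log2 change with shARID1A.2 minus that with shARID1A.4 (edgeR, FDR under 0.01, a call made in 1.84% of tested sites as lower and 0.737% as higher with shARID1A.2). At the sites that closed, the fall was deeper with shARID1A.4. The difference was 1.47 at ERLIN1, 1.11 at PAMR1, 0.93 at EDN3, 0.82 at LOC285692, 0.57 at TBX18 and 0.48 at EFNA5. Among the sites that opened, the rise was larger with shARID1A.4 at GPR22, with a difference of -0.94, and larger with shARID1A.2 at ZNF469, with a difference of 0.80. The direction against Control was the same with both shRNAs at all 8 sites, which is part of the choice of these sites and no result.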

How the results depend on the processing

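Scaled by library totals only, shARID1A.2 opened 5302 sites, both shRNAs opened 2412 and promoters made up 50.5% of these. Scaled on promoter sites, the mean of both shRNAs closed 35259 and opened 1179, shARID1A.2 opened 1349, shARID1A.4 closed 31412 and opened 1486, both closed 16504 and opened 235, and promoters made up 1.84% of closed and 33.6% of opened sites. The closed share of the calls of the averaged contrast was then 96.8%, against 76.3%. With GC offsets promoters made up 1.69% of closed and 25.4% of opened sites. Without the filter both shRNAs opened 1947. At an FDR under 0.05 the opened counts were 12267 for the mean, 7415 for shARID1A.2, 15924 for shARID1A.4 and 3448 for both. With an absolute log2 change of at least 1 the mean closed 4592 and opened 305, shARID1A.2 closed 4769 and opened 515, shARID1A.4 closed 6040 and opened 901, both closed 1904 and opened 40, and promoters made up 0.578% of closed and 10% of opened sites. With DESeq2 both closed 6507 and opened 1092.

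With the replicate number as a block both shRNAs opened 1913 sites and closed 9313, and promoters made up 46.6% of opened sites. With the block and only the 9 libraries the mean opened 12450, shARID1A.2 7527, shARID1A.4 15501 and both 4413, of which 46.5% were promoters, and the closed share of calls was 63.2%. Same-numbered libraries correlated at -0.01 to 0.21, over 0.1 in 1 of 9 pairs, and 7 of 9 libraries correlated best with their own number. The main fit did not treat the numbers as pairing, and whether they mark a pairing or a batch was not tested. The ARID1A promoter site was called with the block (edgeR FDR 0.00656, and 0.000209 with only the 9 libraries), and the ARID1B site nearest to its TSS with the block and only the 9 libraries (0.00102).

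Leaving out 1 library at a time, the mean closed 14441 to 17966 and opened 2645 to 9323, shARID1A.2 closed 10893 to 15934 and opened 1171 to 4840, shARID1A.4 closed 10154 to 14901 and opened 4237 to 10593, and both closed 6325 to 7548 and opened 394 to 2693. Promoters made up 0.950% to 1.23% of closed and 30.7% to 49.5% of opened sites. Without Control replicate 2 the opened counts were 2645, 1782, 4794 and 520 for the mean, shARID1A.2, shARID1A.4 and both. Without shARID1A.2 replicate 1 the mean opened 3799, shARID1A.2 1171 and both 394, without its replicate 2 they opened 9323, 4840 and 2693, and without its replicate 3 shARID1A.2 opened 1594 and both 698. Without shARID1A.4 replicates 1 and 2 that shRNA opened 4237 and 5316. The read share of promoters rose by 2.57 to 3.05 points, of exons by 0.624 to 0.793 and of gene ends by 0.00959 to 0.0752, and changed by -1.75 to -1.46 for introns and -2.30 to -1.51 for intergenic sites, where the smallest p possible was 0.0714 without a Control library. The causes of these shifts were not tested. Of 1159 values of the 61 named sites under 19 settings, 25 lost their call, 22 of them under the limit on the log2 change, 13 gained one, 9 at the ARID1A promoter and 4 at the ARID1B site nearest to its TSS, and 0 reversed.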
